A study of Mus musculus with 8 samples.

Results

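CCL3, the chemokine also called MIP-1α, was compared with its carrier in mice labelled Ccl3-/-. Arrays were chosen by their titles, 2 from CCL3-injected and 2 from carrier-injected mice so labelled, which makes 4 of the 8 arrays of the study. Each array measured total RNA of olfactory mucosa, the nasal lining that holds the olfactory neurons, their precursors, supporting cells, glands and blood vessels. All mice, controls included, had undergone bilateral bulbectomy, removal of the olfactory bulbs on both sides. The other 4 arrays, 2 carrier and 2 CCL3, came from C57BL/6 mice, and they enter here through the shared estimate of the spread and as the second genotype. The labels give no age, dose, route, time after the operation, details of the deleted allele or number of animals behind an array. Whether replicates are separate animals is not stated, so a p-value here reflects array-to-array spread alone, and that spread may be technical.

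CCL3 is a secreted protein that binds the receptor CCR1 on macrophages and other leukocytes and attracts them to injured tissue. Bulbectomy removes the tissue to which olfactory neurons project, and the neurons then die and are replaced from basal precursors, while macrophages enter the epithelium and clear the remains. The title of the study names the effect of CCL3 on that macrophage entry. Injection of the protein into animals labelled as lacking the gene addresses what the added chemokine does to the tissue in them.

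The labels could be checked only in part. The Ccl3 probe set read 812.2 and 803.6 on the carrier arrays labelled Ccl3-/- and 727.3 and 729.5 on the CCL3 arrays, and between 159.4 and 386.5 on the C57BL/6 arrays. It was thus brighter where the gene is labelled as deleted, which goes against the label unless the probes lie outside the deleted part, and every statement below refers to arrays by their labels. The tissue label fitted its markers. Omp, the marker of mature olfactory neurons, read 21778.7 and 8657.0 on the carrier and 16002.0 and 19808.4 on the CCL3 arrays. The channel gene Cnga2, which opens in response to odours, read between 3844.7 and 6822.7 on these 4 arrays, and Krt18, a keratin of the supporting cells, between 17032.7 and 29220.1. Krt5, a keratin of horizontal basal cells, stayed under the filter value on every array (at most 239.0).

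The deposited values are linear intensities already scaled to one another, with a median of 581.4 to 660.3 per array. Differences below are CCL3 minus carrier in log2(intensity + 102.3), which understates the difference of dim genes, each with its standard error (SE) from limma and n = 2 arrays per group. Testing was limited to probe sets above 362.7 on 2 or more of the 8 arrays. This kept 8150 of 12488 probe sets and 6181 named genes. A dim gene can pass through the 2 arrays of 1 group alone, which favours dim genes whose groups differ. The 2 carrier arrays differed from each other by a root mean square of 0.571 log2 units over these probe sets and the 2 CCL3 arrays by 0.398. Carrier replicates 1 and 2 differed in cell type and division genes too: 17 genes of mature olfactory neurons lay on average at 0.43 and -0.54 around their mean over all arrays, and 37 mitosis genes lay at -0.26 and 0.60. The ratio of 3' to 5' Gapdh signal, a sign of RNA integrity, was between 0.755 and 1.06 on the 4 arrays. C57BL/6 carrier replicate 1 stood apart at 2.59. The C57BL/6 groups, which enter every SE through the shared spread, differed between replicates by 0.707 (carrier) and 0.485 (CCL3) log2 units.

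Over the whole table, limma gave 0 of 8150 probe sets an adjusted p under 0.05 (lowest adjusted p 0.722). At an unadjusted p under 0.05, 399 probe sets (4.90%) were counted, 226 of them higher after CCL3 (2.77%) and 173 lower (2.12%). With no probe set past the threshold, the genes below are given by their values, and none is called changed. A second description was whether both CCL3 arrays lay on one side of both carrier arrays. This held for 1865 probe sets on the higher side (22.9%) and 1302 on the lower side (16.0%), and for 1445 of the 6181 genes (23.4%) and 988 genes (16.0%) when each was read by its brightest tested probe set. The median difference over those genes was 0.03. An exact two-sided permutation test of 2 against 2 arrays cannot give a p below 0.333.

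The plainest pattern on the lower side was a group of genes of acute inflammation, tissue breakdown and repair that read higher on both carrier arrays labelled Ccl3-/- than on either CCL3 array. It took in plasma proteins of the acute phase, interleukin 1 regulators and matrix proteases. Cxcl1, P-selectin and some receptors and targets of the interleukin 6 family were single members of mixed lists. Of 13 interleukin 6 family genes, 4 stood apart on the lower side and 4 on the higher (30.8% each). For 14 adhesion genes the shares were 28.6% lower and 35.7% higher, and for 8 CXC genes 25.0% and 12.5%. Over all genes they were 16.0% and 23.4%. On the higher side stood red cell and haem synthesis genes, MHC class II genes and, less clearly, genes of immature olfactory neurons. The plot of intensities of 20 inflammatory and matrix genes shows the first group on every array.

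**Figure D1:**
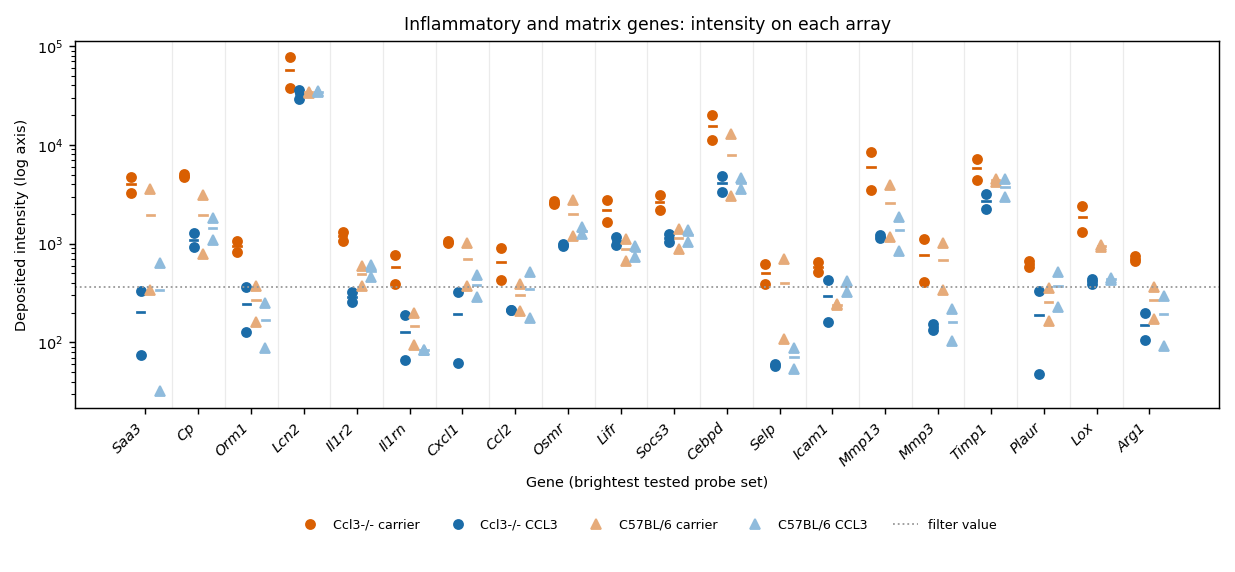
Deposited intensity (log axis) of 20 genes on each of the 8 arrays, with circles for arrays labelled Ccl3-/- and triangles for C57BL/6, orange for carrier and blue for CCL3, a short bar at each group mean and a dotted line at the filter value of 362.7. The 20 genes were picked after their values were seen, among genes with the dark orange circles above the dark blue circles. That order therefore holds for all 20 by choice, against 16.0% of all genes. C57BL/6 carrier replicate 1 reaches similar levels for Saa3 (3563.0), Osmr (2777.6) and Selp (693.5).

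The windows of 4 promoters are shown first, because they belong to members of these groups whose arrays differed by the widest margins or that stand for a group: Saa3, Cxcl1 and Mmp3 from the lower side and Alas2 from the higher. Each runs 5′ to 3′ on the strand of its gene, from 250 bases before to 50 after the RefSeq start (GRCm38.p6). Capitals mark matches to 6 short motifs, searched on both strands. They are TTCNNNGAA for STAT factors, TTGCNNAA for C/EBP factors and CCNCACCC for KLF1, and a motif of 10 letters for NF-kB. The motif of AP-1 was TGANTCA. For the factors of the GATA family the letters searched were AGATAA. A match is a string of letters and no evidence of binding.
Saa3, chr7:46715627-46715926, minus strand, C/EBP and GATA matches: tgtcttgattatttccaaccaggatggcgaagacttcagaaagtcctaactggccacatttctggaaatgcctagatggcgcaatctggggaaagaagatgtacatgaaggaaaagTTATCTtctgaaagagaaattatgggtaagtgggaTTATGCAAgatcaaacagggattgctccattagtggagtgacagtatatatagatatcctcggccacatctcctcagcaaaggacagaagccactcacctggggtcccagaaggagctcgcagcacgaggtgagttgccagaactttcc
Cxcl1, chr5:90890995-90891294, plus strand, NF-kB match: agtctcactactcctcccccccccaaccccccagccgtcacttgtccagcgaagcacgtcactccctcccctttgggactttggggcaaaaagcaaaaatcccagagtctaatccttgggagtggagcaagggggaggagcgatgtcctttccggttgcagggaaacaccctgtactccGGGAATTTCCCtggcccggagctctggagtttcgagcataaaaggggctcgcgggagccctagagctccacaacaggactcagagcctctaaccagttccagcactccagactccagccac
Mmp3, chr9:7445572-7445871, plus strand, C/EBP and AP-1 matches: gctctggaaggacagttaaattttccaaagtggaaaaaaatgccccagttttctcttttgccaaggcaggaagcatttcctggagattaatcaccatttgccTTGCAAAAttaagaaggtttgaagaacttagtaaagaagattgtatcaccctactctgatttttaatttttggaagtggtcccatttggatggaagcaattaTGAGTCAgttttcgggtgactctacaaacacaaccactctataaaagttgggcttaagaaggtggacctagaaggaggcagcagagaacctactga
Alas2, chrX:150547167-150547466, plus strand, GATA and KLF1 matches: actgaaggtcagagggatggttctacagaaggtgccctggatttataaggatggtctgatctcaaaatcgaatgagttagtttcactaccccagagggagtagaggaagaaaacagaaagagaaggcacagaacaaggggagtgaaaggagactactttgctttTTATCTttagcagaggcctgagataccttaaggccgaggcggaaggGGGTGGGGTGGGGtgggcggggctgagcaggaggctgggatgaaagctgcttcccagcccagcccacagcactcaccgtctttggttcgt

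The NF-kB letters in the Cxcl1 window read on both strands 1 base apart, which gives 2 overlapping matches, and the KLF1 letters of the Alas2 window likewise hold 2 overlapping matches. The same search covered 20 genes of the lower side and 10 of the higher, picked after their values were seen, of which 17 and 7 had a window. AP-1 letters stood in the windows of 7 of the 17 genes (Cp, Il1rn, Osmr, Selp, Mmp13, Mmp3 and Plaur), against 7.81% of all 32851 windows of 300 bases. C/EBP letters stood in 5 of the 17 (Saa3, Cp, Mmp3, Plaur and Lcn2; 10.8% of all windows), STAT letters in 3 (Il1r2, Socs3 and Icam1; 8.3%) and NF-kB letters in 2 (Cxcl1 and its neighbour Cxcl2; 1.47%). Among the 7 windows of the higher side, GATA letters stood in 2 (Alas2 and Rhd, 11.2% of all windows). KLF1 letters stood in 2 of them (Alas2 and the beta globin gene Hbb-bt, 16.6%). STAT, C/EBP, NF-kB and AP-1 letters stood in 0 of the 7. On the lower side, GATA letters stood in 1 of the 17 (Saa3) and KLF1 letters in 1 (Cp). Some genes had more than 1 window, and each was counted once, so the shares are not tested.

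Acute phase genes encode plasma proteins that rise in blood and at surfaces during inflammation. The list had 29 genes, the array 25 of them, and 15 were bright enough to test. After CCL3, 12 of these 15 were lower and 3 higher, with a median of -0.61 against 0.03 over all genes. Both CCL3 arrays lay below both carrier arrays for 10 of the 15 (against 16.0% of all genes). They lay above them for 3 of the 15 (against 23.4% of all genes). An unadjusted p under 0.05 in limma was found on the lower side for 5 of the 15 (against 2.10% of all genes). Saa3, a serum amyloid A made by macrophages and epithelia, read 3241.5 and 4742.8 on the carrier arrays and 74.8 and 333.5 on the CCL3 arrays. The groups were far apart, and 1 CCL3 array lay below the added constant of 102.3, where intensities carry little information. The difference was -3.86 ± 0.97, or 14.5-fold on the scale with the constant (unadjusted p = 0.00259, adjusted p = 0.722 in limma). Cp, the copper-carrying ferroxidase ceruloplasmin, read 4695.4 and 5059.9 after carrier and 914.0 and 1284.3 after CCL3, a difference of -2.07 ± 0.51. Cp was bright on all 4 arrays, so that difference does not rest on dim values.

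Orm1, an acid glycoprotein of plasma, read 1057.8 and 830.3 after carrier and 127.9 and 364.4 after CCL3 (-1.67 ± 0.49). The protease inhibitor gene A2m read 368.9 and 457.0 after carrier and 175.0 and 20.1 after CCL3 (-1.48 ± 0.51). It would not have passed the filter without its carrier arrays, and 1 CCL3 value lay below the added constant. Lcn2, an iron-trapping lipocalin, differed by -0.73 ± 0.31. Lcn2 was near the top of the intensity range, at 37267.4 and 76855.4 after carrier and 35911.3 and 29017.2 after CCL3, so carrier replicate 2 supplied most of its difference, and its second, dimmer probe set was at -0.02. The 3 genes on the higher side, Alb, Hpx and Saa2, were dim, and Saa2 was at 0.53 ± 0.32 by its brighter probe set and at -0.87 ± 0.53 by the other. Alb, serum albumin, read 244.4 and 171.0 after carrier and 476.0 and 295.6 after CCL3. The mean level of the list around its mean over all arrays was 0.38 and 0.51 on the carrier arrays and -0.43 and -0.27 on the CCL3 arrays.

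Interleukin 1 is a cytokine of early inflammation, and its action is limited by the decoy receptor IL1R2 and the antagonist IL1RN. Of 17 genes on the list only 6 passed the filter, 4 of them lower, with groups apart on the lower side for 3 of the 6 (against 16.0% of all genes) and a median of -0.40. Il1r2 read 1314.5 and 1058.2 after carrier and 257.0 and 323.6 after CCL3 by the probe set with the larger difference. Its other probe set read 888.8 and 866.9 after carrier and 207.1 and 332.0 after CCL3. Both probe sets separated the groups, by -1.71 ± 0.31 and -1.42 ± 0.30, and on the carrier arrays the replicates lay close together. Il1rn read 386.6 and 772.3 after carrier and 191.0 and 65.8 after CCL3 (-1.56 ± 0.49), and Il1r1, the signalling receptor, differed by -0.54 ± 0.35.

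The interleukin 6 family (LIF, oncostatin M and interleukin 6) signals through STAT3 and is known for its role in olfactory basal cell division after injury. Of 13 tested genes 8 were lower and 5 higher, with a median of -0.09, so the list as a whole lay near the median of all genes. Its receptors and immediate targets differed among themselves. Osmr, the oncostatin M receptor, read 2533.1 and 2680.4 after carrier and 989.1 and 945.5 after CCL3, a difference of -1.34 ± 0.35 with replicates nearly equal in both groups. Socs3, a feedback inhibitor induced by STAT3, read 2194.4 and 3121.4 after carrier and 1036.1 and 1237.8 after CCL3, and its 2 probe sets differed by -1.14 ± 0.30 and -1.12 ± 0.30. Cebpd, a transcription factor of the acute phase response, read 11143.7 and 19905.2 after carrier and 3361.3 and 4826.7 after CCL3 (-1.86 ± 0.56). In each of these 3 genes the lower carrier array was above the higher CCL3 array.

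Lifr, the LIF receptor, differed by -0.93 ± 0.33. Stat3 itself read between 5769.2 and 6453.7 on the 4 arrays by its brighter probe set (0.11 ± 0.26) and was at -0.15 by another, whose groups overlapped. As many members stood apart on the higher side, 4, as on the lower. Of these Il6ra had the largest difference, at 70.5 and 73.1 after carrier and 268.1 and 614.1 after CCL3 (1.57 ± 0.50). Both of its carrier values lay below the added constant.

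Chemokines attract leukocytes. Ccr1, which encodes a receptor of CCL3, read 572.5 and 261.2 after carrier and 139.2 and 190.8 after CCL3 and was left out by the filter, as was Ccl4, the neighbour of Ccl3, at 54.9 and 167.5 after carrier and 115.3 and 143.1 after CCL3. Cxcl1, an attractant of neutrophils, read 1005.3 and 1067.1 after carrier and 62.4 and 324.3 after CCL3. The carrier replicates were nearly equal, and its 2 probe sets differed by -2.10 ± 0.52 and -1.73 ± 0.62. Cxcl2, a close relative, read 507.8 and 334.1 against 46.3 and 108.5 (-1.54 ± 0.76). Ccl2, the main attractant of monocytes, read 423.7 and 893.2 after carrier and 212.3 and 213.6 after CCL3 (-1.20 ± 0.48).

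Ccl22, a product of dendritic cells and macrophages, was on the higher side at 631.7 and 463.6 after carrier and 1225.8 and 1058.4 after CCL3 (0.95 ± 0.26). Of 8 tested CC chemokine and receptor genes 5 were lower and 3 higher (median -0.13), and of 8 CXC genes 3 were lower and 5 higher (median 0.11). The direction of neither list's median held in every fit with 1 array left out, so directions are given for single genes only.

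Adhesion molecules hold leukocytes to vessel walls. Selp, P-selectin, read 615.9 and 388.4 after carrier and 57.4 and 59.8 after CCL3, both of the latter below the added constant (-1.88 ± 0.60). Icam1, a ligand of leukocyte integrins, read 515.0 and 656.3 against 159.1 and 425.5 (-0.88 ± 0.40), and Vcam1 differed by -0.59 ± 0.32. On the other side stood genes of the leukocyte integrins themselves: Itgal differed by 0.50 ± 0.50 and Itgax by 0.43 ± 0.28. Of 14 tested members 8 were lower and 6 higher, with a median of -0.19 that changed sign without CCL3 replicate 2 (0.03).

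Matrix metalloproteinases cut collagen and other matrix proteins, and TIMPs inhibit them. Of 13 tested members of 26 on the list, 11 were lower and 2 higher (median -0.52). The groups stood apart on the lower side for 9 (69.2%, against 16.0% of all genes). They did so on the higher side for none (23.4% of all genes). Mmp13, collagenase 3, read 8402.5 and 3480.6 after carrier and 1145.1 and 1208.9 after CCL3 (-2.11 ± 0.57). The 2 carrier arrays differed widely but both lay above the CCL3 arrays. Mmp3, stromelysin, read 1120.1 and 411.0 against 134.3 and 154.0 (-1.69 ± 0.54). Timp1 read 4419.4 and 7180.5 against 3179.5 and 2236.8 (-1.05 ± 0.32), and Plaur, the receptor of urokinase, differed by -1.50 ± 0.54. Proteases and an inhibitor of proteases thus lay on the same side.

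The smallest p of the whole comparison belonged to Lox, lysyl oxidase, which crosslinks collagen. It read 1324.9 and 2412.8 after carrier and 388.2 and 438.7 after CCL3, a difference of -1.88 ± 0.30 (unadjusted p = 0.00011, adjusted p = 0.722 in limma). A second, dimmer probe set of Lox read 428.8 and 124.0 against 302.4 and 239.8 and did not share the difference (0.10 ± 0.48). Collagens and lysyl oxidases as a list were not lower: 16 of 23 tested members were higher, with a median of 0.15 (-0.02 without CCL3 replicate 1).

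Markers of the leukocytes that could carry these transcripts were read beside them. Of 49 macrophage genes 28 passed the filter, 15 higher and 13 lower, with a median of 0.01, and 3 and 5 groups stood apart on the higher and lower side, shares below or near those of all genes. The summed intensity of the 28 was 104897 and 140231 after carrier and 113780 and 115096 after CCL3, so the CCL3 arrays lay between the carrier arrays. Cd68, a lysosomal protein, read 2020.2 and 2455.8 against 2070.2 and 2403.9, Adgre1, which encodes F4/80, read 475.1 and 160.9 against 190.6 and 465.0, and Csf1r, the CSF1 receptor, read 1181.2 and 1588.1 against 2009.0 and 1483.7. The groups overlapped for all 3. Arg1, an arginase of alternatively activated macrophages, was the member that stood out, at 660.9 and 751.4 after carrier and 105.3 and 198.0 after CCL3 (-1.69 ± 0.46).

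Of 28 neutrophil genes 16 passed the filter, 9 higher and 7 lower (median 0.18, but -0.02 without carrier replicate 2 or CCL3 replicate 1). Their summed intensity was 143464 and 199274 after carrier and 137382 and 117901 after CCL3, and Lcn2, which is counted among them and among the acute phase genes, makes up much of that sum. S100a8, a subunit of calprotectin of neutrophils, read 17507.3 and 5957.6 against 8792.5 and 4210.8, and the granule gene Ngp read 1976.5 and 608.7 against 1947.1 and 848.7. The groups overlapped for both. Camp, a granule peptide gene, differed by 1.36 ± 0.60, with CCL3 replicate 1 at 17005.3 and the other 3 arrays between 2400.4 and 3698.3. None of these defining markers was at 0, and the part of leukocyte numbers in the inflammatory genes was not tested.

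Some genes of the lower side are also made in bone. Ibsp, bone sialoprotein, read 3258.3 and 3090.6 after carrier and 750.7 and 772.5 after CCL3 (-1.92 ± 0.46), while the cartilage genes Acan (435.2 and 397.4 against 2559.7 and 1177.2, 1.83 ± 0.64) and Col11a2 (319.8 and 241.9 against 1346.0 and 554.3, 1.36 ± 0.40) lay on the higher side. Of 17 tested bone and cartilage genes, 8 were higher and 9 lower (median -0.03), and their summed intensity was 32803 and 43935 after carrier and 32750 and 23804 after CCL3. The share of bone in the dissected tissue, in which Mmp13 is also expressed, was not tested.

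Immediate early genes are switched on within minutes of a stimulus, dissection included. Of 31 tested members 26 were lower after CCL3 and 5 higher (median -0.47), groups stood apart on the lower side for 16 and on the higher side for 1, and 6 had an unadjusted p under 0.05 on the lower side. The lower side thus held 51.6% of the list against 16.0% of all genes, and the higher side 3.23% against 23.4%. Fos read 788.8 and 1613.2 after carrier and 402.8 and 599.8 after CCL3 (-1.05 ± 0.33). Dusp1, a phosphatase that ends MAP kinase signals, differed by -0.91 ± 0.36 and Ccn2, a growth factor target of tissue repair, by -1.31 ± 0.53. Cebpd, counted above, belongs to this list too. The list's mean level lay at 0.02 and 0.35 on the 2 carrier arrays and at -0.38 and -0.11 on the CCL3 arrays around its mean over all arrays.

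Gland and surface secretions differed most on carrier replicate 2. Of 22 tested gland products 12 were lower and 10 higher (median -0.22). Pip, a secreted protein of nasal and salivary glands, read 3662.1 and 5749.7 after carrier and 676.7 and 1643.6 after CCL3 (-2.01 ± 0.49). Wfdc18, a small secreted protein, read 23581.3 and 71077.8 against 12478.8 and 12962.9 (-1.68 ± 0.42). It was the 1 gene that passed when carrier replicate 1 was left out (-2.47, adjusted p = 0.0348 in limma), a fit in which carrier replicate 2 stands alone and is assumed to vary like the other groups. Muc1, Slpi and Pigr were likewise brightest on carrier replicate 2, at 24111.2, 26305.7 and 21129.0, with differences of -0.92 ± 0.39, -1.09 ± 0.43 and -1.11 ± 0.34. Tff2, a mucosal peptide, stood on the other side at 2468.9 and 1410.3 against 6225.7 and 3908.2 (1.35 ± 0.39).

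Red cell genes were the clearest group of the higher side. Of 25 on the list 14 passed the filter, 13 of them higher and 1 lower, with a median of 0.60. The groups stood apart on the higher side for 9 of 14 (64.3%, against 23.4% of all genes). They did so on the lower side for none (16.0% of all genes). At an unadjusted p under 0.05 in limma, 6 were higher (2.72% of all genes). Hbb-b2, a beta globin whose copies can share signal, read 10252.4 and 8033.4 after carrier and 20838.6 and 21075.9 after CCL3 (1.20 ± 0.25). Hba-a1, an alpha globin, read 35434.6 and 30414.3 against 59227.7 and 64718.9 (0.91 ± 0.27). Both globins were bright, and the replicates of each group lay close together. In whole tissue, fewer or more cells of a type and less or more RNA per cell cannot be told apart.

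The group was not limited to globins. Slc4a1, the anion exchanger of the red cell membrane, read 366.2 and 337.9 after carrier and 1806.9 and 958.9 after CCL3 (1.65 ± 0.43). Rhag and Rhd, which form the Rh complex, differed by 0.97 ± 0.34 and 1.46 ± 0.51. Pklr, the pyruvate kinase of liver and red cells, read 1052.7 and 936.6 against 2140.2 and 2557.1 (1.16 ± 0.25). Car2 and Bpgm, enzymes of red cells that other tissues also express, differed by 0.58 ± 0.28 and 0.54 ± 0.31. The exception was Tfrc, the transferrin receptor, through which iron enters dividing cells and red cell precursors. It was named after its values were seen, and its brighter and dimmer probe sets were at -0.44 and -1.27. Klf1 and Gata1, transcription factors of red cell precursors, were at 0.36 and 0.02. The summed intensity of the 14 tested red cell genes was 69014 and 55559 after carrier and 109219 and 110058 after CCL3.

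Haem synthesis gave all 7 tested enzymes on the higher side (median 0.49), 4 of them with groups apart (57.1%, against 23.4% of all genes). Alas2, the first enzyme in red cell precursors and also counted among the red cell genes, read 1388.5 and 1531.6 after carrier and 2704.2 and 3470.3 after CCL3 (1.02 ± 0.26). Uros and Ppox, later enzymes of the pathway, read 1104.8 and 1272.3 against 2520.9 and 1772.6 (0.78 ± 0.33) and 825.6 and 849.8 against 1616.9 and 1157.1 (0.65 ± 0.31). Alas1, the first enzyme in all other cells, read 18646.2 and 17744.5 against 18170.7 and 23809.3, so its groups overlapped (0.19 ± 0.25).

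**Figure D2:**
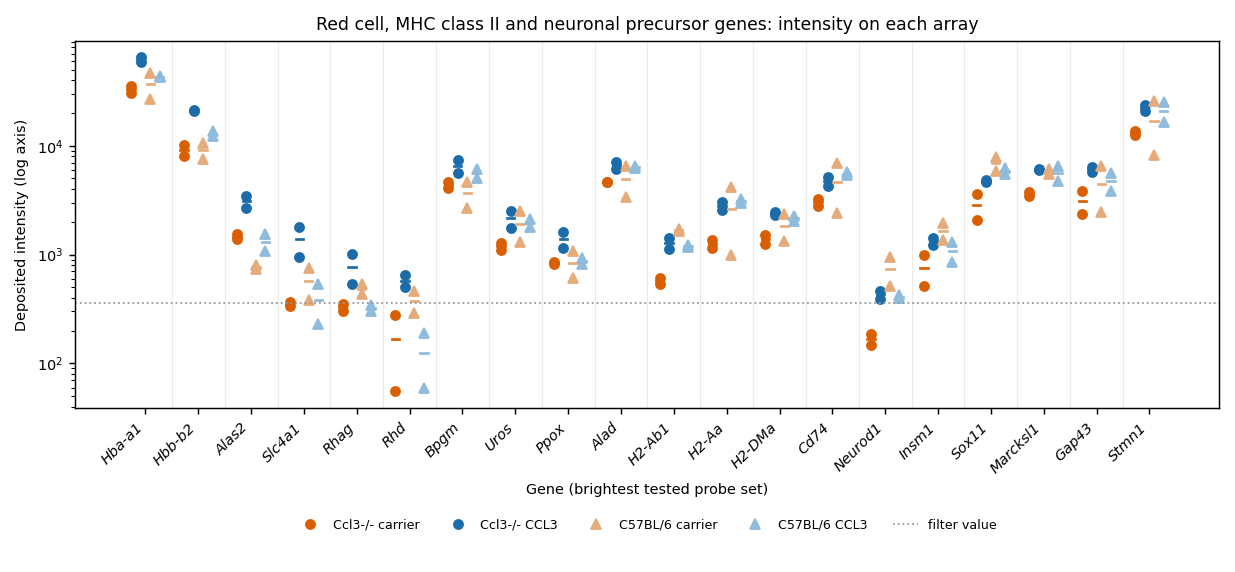
Deposited intensity (log axis) of 20 red cell, haem synthesis, MHC class II and neuronal precursor genes on each of the 8 arrays, drawn as in the plot of inflammatory genes. The 20 genes were picked after their values were seen, among genes with the dark blue circles above the dark orange circles. That order therefore holds for all 20 by choice, against 23.4% of all genes. The Hbb-b2 values after CCL3 on arrays labelled Ccl3-/- (20838.6 and 21075.9) lie above every other array.

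MHC class II molecules present peptides to T cells and are made by dendritic cells, B cells and activated macrophages. Of 10 tested members of 17 on the list 8 were higher and 2 lower (median 0.29), and groups stood apart on the higher side for 5 of the 10 (against 23.4% of all genes). H2-Ab1 read 539.0 and 603.6 after carrier and 1435.0 and 1136.3 after CCL3, a difference of 1.04 ± 0.24 with close replicates. H2-Aa, the chain that pairs with it, read 1364.4 and 1144.5 against 3061.9 and 2574.1 (1.11 ± 0.50), and H2-DMa, which loads peptides, read 1517.9 and 1260.2 against 2474.0 and 2321.6 (0.75 ± 0.29). Cd74, the invariant chain, read 3241.5 and 2798.2 against 4243.7 and 5205.8 (0.63 ± 0.41). H2-Eb1 overlapped between the groups (0.25 ± 0.25), and so did Ciita, the transcription factor that drives the class (0.34 ± 0.34).

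Lymphocyte genes and other presentation genes were read beside them. Of 13 tested B cell genes 7 were higher and 6 lower (median 0.14, and -0.28 with a filter at the 60th percentile), with a summed intensity of 17910 and 31539 after carrier and 17625 and 17149 after CCL3. Of 7 tested T and NK cell genes 6 were higher (median 0.25), a direction lost without CCL3 replicate 1 (-0.04). Itgax, a dendritic cell integrin, was given above. MHC class I genes, which most cells make, did not share the direction: 9 of 13 were lower (median -0.19), and that sign was lost without carrier replicate 2 (0.07). Interferon response genes were split 9 to 9 with a median of 0.00.

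Genes of neuronal precursors and immature neurons leaned to the higher side less clearly. Their share apart on that side was close to the 35.7% of the adhesion genes, a mixed list. Of 26 tested members 18 were higher and 8 lower (median 0.32), groups stood apart on the higher side for 9 (34.6%, against 23.4% of all genes) and on the lower side for none, and 5 were higher at an unadjusted p under 0.05 (2.72% of all genes). Neurod1, a transcription factor of late precursors, read 146.9 and 187.9 after carrier and 394.3 and 467.3 after CCL3 (0.98 ± 0.35), close to the filter value. Insm1, which acts at the exit from division, read 991.9 and 510.6 against 1233.7 and 1428.7 (0.80 ± 0.34). Sox11, a factor of immature neurons, read 3586.9 and 2079.7 against 4791.8 and 4607.1 (0.76 ± 0.30, with 0.98 ± 0.30 by its dimmer probe set). Marcksl1 read 3464.5 and 3737.7 against 6097.5 and 5981.6 (0.73 ± 0.25), and Gap43, a protein of growing axons, read 3853.9 and 2334.7 against 5759.8 and 6442.8 (1.00 ± 0.43). The mean level of the list was -0.08 and -0.42 on the carrier arrays and -0.07 and 0.15 on the CCL3 arrays, so replicate 1 of each group was nearly level.

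Mature neuron genes gave no steady direction. Of 17 tested 11 were higher and 6 lower (median 0.08, but -0.33 without carrier replicate 2 and 0.68 without carrier replicate 1). Groups stood apart on the higher side for 2 (11.8%, against 23.4% of all genes). They did so on the lower side for 1 (5.88%, against 16.0%). Among genes of cell division, 30 of 37 DNA replication genes were lower (median -0.21), among them Chaf1b, a histone chaperone subunit (460.2 and 527.5 against 95.1 and 87.2, -1.62 ± 0.38), and 24 of 37 mitosis genes were lower (median -0.18). Without carrier replicate 2 both medians turned positive, to 0.05 and 0.35, and without carrier replicate 1 the mitosis median was -0.60. Carrier replicate 2 was the highest of the 4 arrays for both lists, with DNA replication genes at 0.46 and mitosis genes at 0.60 above their means, whereas carrier replicate 1 lay at -0.05 and -0.26. The mean levels of carrier and CCL3 arrays overlapped for both lists.

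Supporting cells and the respiratory chain gave no direction. Of 37 tested sustentacular and cytochrome P450 genes 19 were higher and 18 lower (median 0.01), and of 48 respiratory chain genes 22 were higher and 26 lower. Heat shock genes were split 18 to 19. Basal cell and keratin genes lay lower in 18 of 28 (median -0.26). Krt6a, a keratin of stressed epithelium, read 3604.5 and 5797.0 against 721.0 and 2105.5 (-1.79 ± 0.84), and Trp63, the transcription factor of basal cells, differed by -0.68 ± 0.26.

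**Figure D3:**
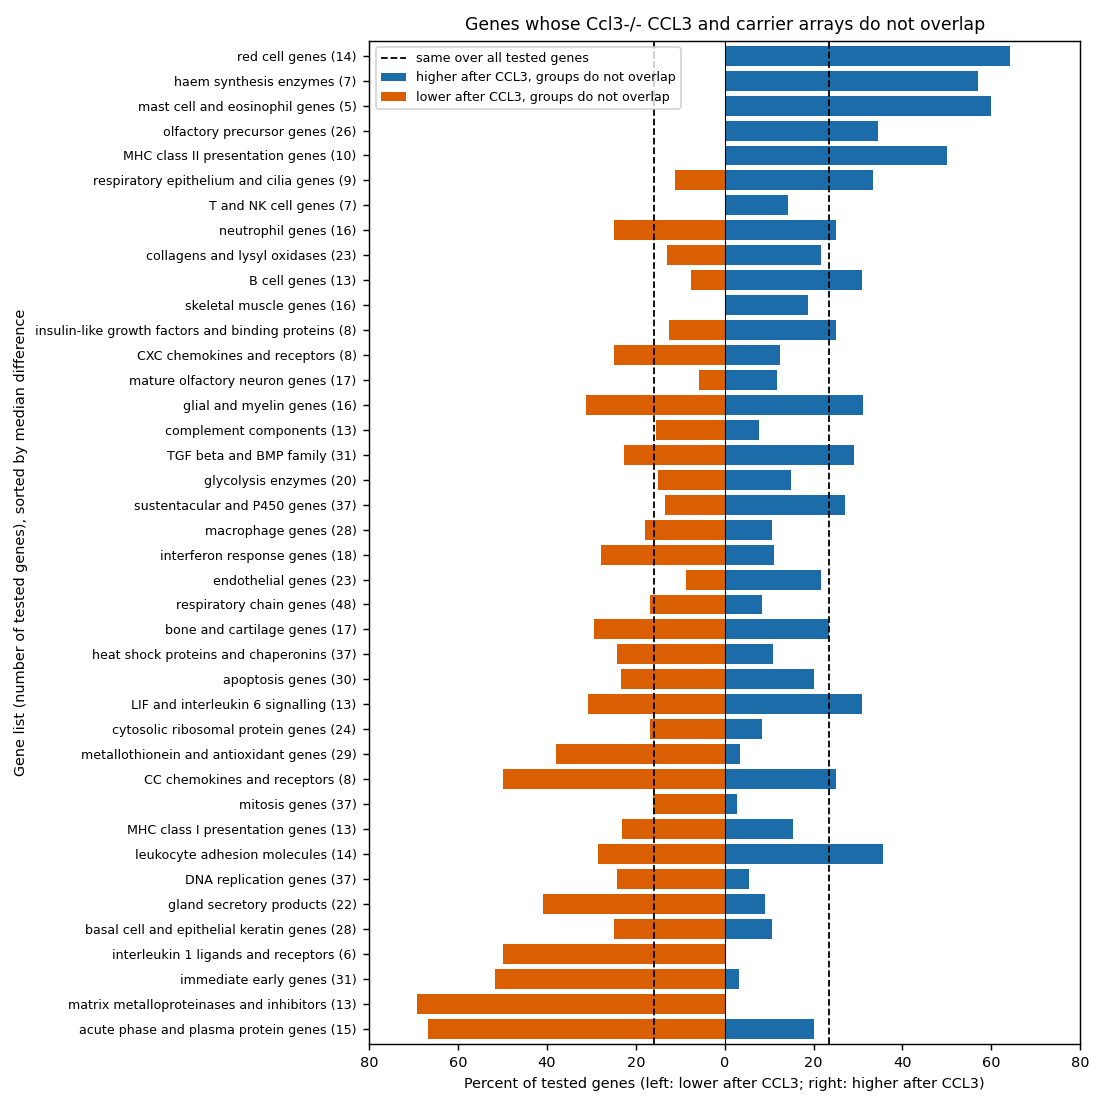
For each of 40 gene lists, the percent of its tested genes whose 2 CCL3 arrays both lay above (right, blue) or both below (left, orange) the 2 carrier arrays on arrays labelled Ccl3-/-, with the number of tested genes in brackets and lists sorted by median difference. The dashed lines are the same shares over all 6181 genes (23.4% and 16.0%); red cell genes reach 64.3% on the right, and matrix metalloproteinases and acute phase genes reach the furthest left.

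Among other single genes, Ltbp3, which binds latent TGF beta in the matrix, had the smallest p of the higher side. It read 321.0 and 241.6 after carrier and 1212.8 and 841.7 after CCL3 (1.55 ± 0.30, unadjusted p = 0.000409 in limma). Zbtb17, a zinc finger factor that partners MYC, read 138.4 and 168.5 against 972.4 and 544.9 (1.71 ± 0.37). Mc3r, a melanocortin receptor, read 141.6 and 137.1 against 445.2 and 595.5 (1.35 ± 0.33), and Kat2a, a histone acetyltransferase, read 148.2 and 167.2 against 701.6 and 521.0 (1.45 ± 0.43). All 4 were dim after carrier.

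On the lower side, Lilr4b, an inhibitory receptor of myeloid cells, read 1207.3 and 960.7 after carrier and 269.8 and 336.8 after CCL3 (-1.55 ± 0.36). Cldn4, a tight junction protein, read 4422.8 and 3415.5 against 1180.7 and 1336.2 (-1.55 ± 0.40). Chil1, a chitinase-like protein of inflamed tissue, read 2618.6 and 4284.2 against 907.4 and 1236.8 (-1.57 ± 0.45). In all 3 the groups were well apart.

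A kind of probe set leaned to the higher side as a whole. The suffix r in a probe set's name marks those that broke some of the design rules of the platform. Of 372 tested with that suffix, 128 had both CCL3 arrays above both carrier arrays (34.4%, against 22.9% of all) and 37 below (9.95%), with a median difference of 0.18. They made up 6 of the 15 named probe sets of smallest p on the higher side and 0 of 15 on the lower. Fth1, ferritin heavy chain, shows it: the r probe set was at 1.17 ± 0.29 and the other, brighter one at -0.30 ± 0.29. Rhag and Mmp12, of the genes used above, were read by such a probe set, and Rhag has no other here.

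The CCL3 difference was then set against that in C57BL/6, which shares no array with it. The difference of the differences passed an adjusted p of 0.05 for 0 of 8150 probe sets in limma (lowest adjusted p 0.908), with 412 at an unadjusted p under 0.05 (5.06%), of which 260 were positive (3.19%) and 152 negative (1.87%). Across the 8150 probe sets the differences of the 2 genotypes had a Pearson r of -0.000293 and a Spearman rho of -0.027, given as a description, since probe sets are not replicates. In C57BL/6 alone the groups stood apart for 979 probe sets on the higher side (12.0%) and 1474 on the lower (18.1%). Groups stood apart in both genotypes for 239 probe sets that were higher in both (2.93%) and 200 that were lower in both (2.45%), and for 395 higher in Ccl3-/- but lower in C57BL/6 (4.85%) and 157 the reverse (1.93%). Since the totals lean to the higher side in Ccl3-/- and to the lower side in C57BL/6, nothing is read from these counts.

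For the inflammatory genes the C57BL/6 carrier arrays disagreed with each other. Replicate 1 read 3563.0 for Saa3, 3110.6 for Cp, 1014.2 for Cxcl1, 3955.6 for Mmp13 and 12803.0 for Cebpd, near the carrier arrays labelled Ccl3-/-. Replicate 2 read 341.8, 791.3, 367.9, 1165.5 and 3015.8 in the same order, near the CCL3 arrays of either genotype. Replicate 1 is the array with the Gapdh ratio of 2.59, while its ratio of 3' to 5' Actb signal, 1.58, was the lowest of the 8 arrays (the others 1.61 to 2.17), and the part of RNA quality in its levels was not tested. The differences of differences were -1.84 ± 1.37 for Saa3, -1.89 ± 0.72 for Cp and -1.50 ± 0.73 for Cxcl1. For Lox both genotypes lay on the lower side, with C57BL/6 at 969.0 and 930.1 after carrier and 424.8 and 451.0 after CCL3 (-0.96 ± 0.30).

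Some genes lay on different sides of 0 in the genotypes, and none of these differences passed after adjustment. Pip was at -2.01 ± 0.49 on arrays labelled Ccl3-/- and 1.42 ± 0.49 in C57BL/6, where it read 582.4 and 842.3 after carrier and 1244.7 and 3355.0 after CCL3 (difference of differences -3.43 ± 0.70, unadjusted p = 0.000622 in limma). Cldn4 had a difference of differences of -2.35 ± 0.57 and Il1r2 one of -1.84 ± 0.44. Alb went the opposite way, at 1045.5 and 1301.2 after carrier and 222.6 and 314.7 after CCL3 in C57BL/6. Its difference of differences was 2.43 ± 0.48 (unadjusted p = 0.000517 in limma). Of the 15 acute phase genes, 3 had a positive and 3 a negative one at an unadjusted p under 0.05 (3.19% and 1.87% of all probe sets). H2-Ab1 read 1735.1 and 1649.4 after carrier and 1172.7 and 1222.5 after CCL3 in C57BL/6 (-0.47 ± 0.24), so all C57BL/6 arrays lay above the carrier arrays labelled Ccl3-/- and around the level of the CCL3 arrays so labelled. Neurod1 read 515.6 and 959.9 against 396.6 and 424.6 in C57BL/6 (difference of differences 1.64 ± 0.50) and Ltbp3 between 624.2 and 863.1 on the 4 C57BL/6 arrays (difference of differences 1.58 ± 0.42). In these 3 genes the carrier arrays labelled Ccl3-/- were the lowest 2 of all 8. These genes were picked for their difference in Ccl3-/-, which is 1 side of the difference of differences.

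For red cell genes the C57BL/6 median difference was -0.08, with 3 of 14 genes apart on the higher side and 3 on the lower, against 12.0% and 18.1% of all probe sets in that genotype. Their summed intensity in C57BL/6 was 74293 and 54499 after carrier and 76374 and 77352 after CCL3, against 109219 and 110058 on the CCL3 arrays labelled Ccl3-/-. Slc4a1 and Rhd had differences of differences of 2.13 ± 0.61 and 2.58 ± 0.72, and the globin Hbb-b2 one of 0.67 ± 0.36. Alas2 lay on the higher side in C57BL/6 too, at 803.4 and 735.0 after carrier and 1533.5 and 1089.5 after CCL3. Its difference of differences was 0.34 ± 0.37. The C57BL/6 median of the haem synthesis enzymes was 0.10. The corresponding medians in C57BL/6 were -0.29 for acute phase genes, -0.25 for matrix metalloproteinases, -0.19 for immediate early genes, -0.13 for precursor genes, 0.27 for MHC class II genes and 0.18 for gland products.

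**Figure D4:**
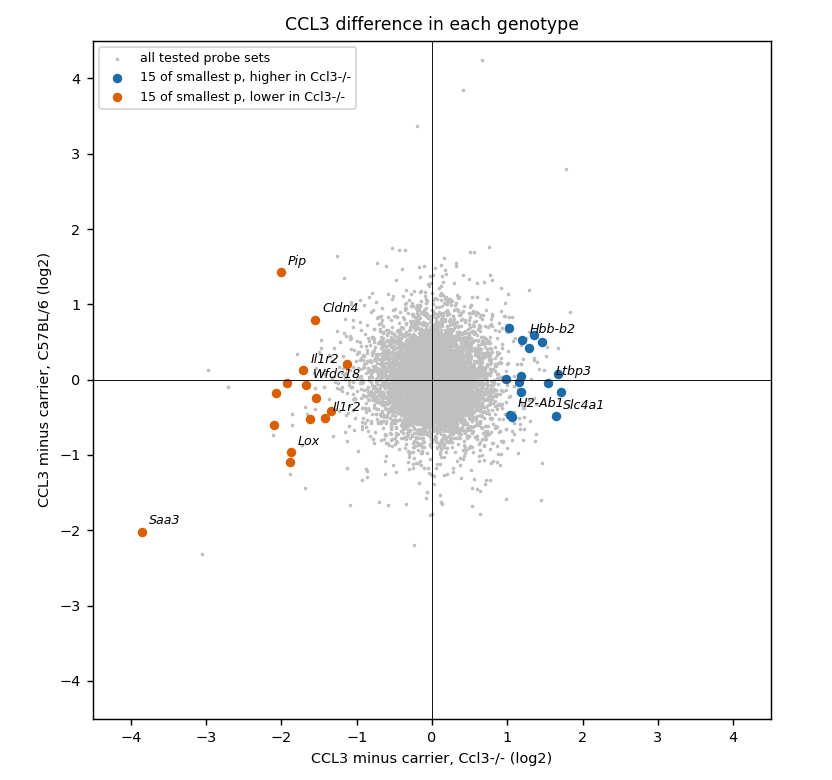
CCL3 minus carrier difference (log2 of intensity plus 102.3) of each of 8150 tested probe sets on arrays labelled Ccl3-/- (horizontal) and C57BL/6 (vertical), with the 15 named probe sets of smallest p in each direction on arrays labelled Ccl3-/- in colour. Saa3 and Lox lie below 0 on both axes, and Pip and Cldn4 lie on opposite sides.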

How the data were processed

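Single-colour expression arrays of mouse olfactory mucosa were analysed from the deposited series table, in which the authors give each probe set 1 linear intensity per array. Which software and scaling they used is not given in the sources used here. Means of the deposited intensities, trimmed by 2% on either side, agreed within 0.00434%, and no further scaling was applied. The platform annotation gave 10855 of 12488 probe sets 1 gene symbol, 396 several and 1237 none, and only the first kind was named. The GRCm38.p6 gene table lacked 16 of those.

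Values were taken as log2(intensity + 102.3), the 20th percentile of the table, and tests were run on probe sets above 362.7, the 40th percentile, on 2 or more arrays. The 4 groups were fitted together in limma 3.58.1 (R 4.3.3) with a trended prior, and two-sided p-values were adjusted by Benjamini-Hochberg over 8150 probe sets. A gene is given by its brightest tested probe set. Named genes were Ccl3, Ccr1 and Ccl4, the 15 of smallest p and the 10 of widest gap in each direction, and from each of 40 lists the 6 of smallest p and the members whose groups did not overlap; markers of the tissue and of leukocytes were added. A gene that the rule also names is not reported here. The comparison, lists and genes were chosen with earlier results of these data known, so a list's count is a description and carries no test.

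Alternatives were other scalings, constants, filters and priors, only the arrays labelled Ccl3-/-, a replicate block, and each array left out. Leaving out the C57BL/6 arrays and the probe sets of suffix r was added after seeing the data. Same-numbered arrays did not deviate together (correlation -0.037 between the groups labelled Ccl3-/- and 0.089 between the C57BL/6 groups). The fit was tested on simulated data. Promoter windows come from RefSeq (GRCm38.p6). Figures were drawn with matplotlib 3.10.9.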

Additional observations from a re-analysis of the deposited data

Results flagged for a closer look

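In skeletal muscle genes the mean CCL3 difference on arrays labelled Ccl3-/- exceeded that in C57BL/6 by 0.40 on the log2 scale. Both carrier arrays labelled Ccl3-/- lay below the average of the CCL3 arrays of that label, and both C57BL/6 carrier arrays lay above the average of the C57BL/6 CCL3 arrays. This difference was not tested. Of 45 muscle genes on the list 16 passed the filter, 11 of them higher after CCL3 on arrays labelled Ccl3-/- (median 0.14). Their summed intensity was 24681 and 25607 after carrier and 35687 and 28663 after CCL3 so labelled, and 24821 and 33316 against 27856 and 30157 in C57BL/6.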

How the results depend on the processing

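With 2 arrays per group, and dim genes near the added constant, the number of arrays and the signal over background limit every value. The adjusted count of 0 became 1 without carrier replicate 1 and was 0 under every other setting run. The unadjusted count of 399 was 600 with only the arrays labelled Ccl3-/- in the fit. It ranged from 133 (without CCL3 replicate 1) to 634 (without C57BL/6 carrier replicate 2), and was 627 without C57BL/6 carrier replicate 1. With the replicate number as a block the adjusted count was 0, the unadjusted count 429 and the adjusted count for the difference between genotypes 0, so the block changed no call.

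For 316 named probe sets whose groups did not overlap, 1 of 4288 recomputed values passed the threshold (Wfdc18); their direction with 1 array left out is fixed by that choice, and it is no sign of stability. Of 101 named probe sets whose groups overlapped, 59 turned sign under at least 1 setting. With 1 array left out, the overlapping probe sets given in the text ranged from -0.0015 to 0.39 for Alas1, -0.090 to 0.77 for Ciita, -0.67 to 0.072 for Fth1, -0.42 to 0.30 for Igf1, -0.23 to 0.20 for the dimmer Lcn2 and -0.51 to 0.72 for the dimmer Lox probe set. Of 40 list medians 27 turned sign under at least 1 setting, 24 of them with an array left out. With 1 array left out, medians ranged from 0.40 to 0.83 for red cell genes, 0.39 to 0.60 for haem synthesis enzymes, -0.83 to -0.33 for acute phase genes, -0.69 to -0.11 for interleukin 1 genes, -0.19 to 0.07 for the interleukin 6 family and 0.20 to 0.46 for MHC class II genes. Among the signs that turned were those of mitosis genes (-0.60 to 0.35), DNA replication genes (-0.42 to 0.047), mature neuron genes (-0.33 to 0.68), ribosomal protein genes (-0.43 to 0.15), collagens (-0.022 to 0.35), complement (-0.10 to 0.20), bone and cartilage genes (-0.47 to 0.28) and neutrophil genes (-0.021 to 0.21). Signs also turned for B cell genes (-0.28 at the stricter filter), adhesion molecules (-0.21 to 0.033, and 0.16 at the stricter filter), CC chemokines (-0.33 to 0.065), CXC chemokines (-0.054 to 0.15, and -0.011 unfiltered), T and NK cell genes (-0.0365 to 0.52), MHC class I genes (-0.37 to 0.073) and antioxidant genes (-0.24 to 0.029). They also turned for mast cell genes (-0.014 unfiltered, -0.044 at the stricter filter) and the TGF beta family (-0.031 at the stricter filter). The stricter filter is the 60th percentile. Haem synthesis enzymes were at 0.48 with quantile normalization or one median per array, 0.47 with the higher constant or all probe sets, and 0.34 unfiltered. Unfiltered, acute phase genes were at -0.37 and MHC class II genes at 0.20, the latter at 0.44 with the stricter filter. Interleukin 1 genes were at -0.29 with the higher constant, -0.26 with either other filter and -0.54 with all probe sets. The cause was not tested.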

Other observations

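Igf1, an insulin-like growth factor, was at -0.06 ± 0.30 by its bright probe set and 1.51 ± 0.46 by a dim one on arrays labelled Ccl3-/-, so its direction depends on the probe set. Gpx2, a glutathione peroxidase of epithelia, read 17240.1 and 29934.5 after carrier and 8798.4 and 11423.1 after CCL3 (-1.17 ± 0.49), and 18 of 29 tested metallothionein and antioxidant genes were lower. Of 24 cytosolic ribosomal protein genes 20 were lower (median -0.13, but 0.15 without carrier replicate 2 and -0.43 without carrier replicate 1), with carrier replicate 2 at 0.44 and the other 3 arrays between -0.04 and 0.08 around the list's mean level. Rps19 led them (-1.04 ± 0.34).

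Some probe sets of large difference carry several gene symbols or none in the platform annotation and are given here unnamed, picked after their values were seen. The first of these read 1629.1 and 2971.8 after carrier and 8698.7 and 7017.4 after CCL3 on arrays labelled Ccl3-/-, and 1320.2 and 2973.1 against 11991.5 and 17316.7 in C57BL/6. All 4 CCL3 arrays lay above all 4 carrier arrays, a pattern that 129 of 8150 tested probe sets shared (1.58%), with 93 on the opposite side (1.14%). Another read 2342.5 and 1926.1 after carrier and 56.8 and 350.2 after CCL3 (-3.05 ± 0.62), the second largest difference of the lower side.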
